A study of Mus musculus with 15 samples.

Results

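The genes described here detect nucleic acids in the cytosol and pass the signal to interferon transcription. They are 10 genes chosen by name, of 53465 genes in the count table: Mb21d1 (the table's symbol for cGAS), Tmem173 (its symbol for STING), Trex1, Ifih1, Mavs, Zbp1, Tbk1, Ikbke, Irf3 and Ifnb1. The choice was made with earlier results of these data known, so setting their counts beside shares of all genes is not a test of the set. All 10 had a row in the table, and 8 passed the filter on low counts. Trex1 and Ifnb1 did not pass it.

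As background, cGAS binds DNA in the cytosol and makes the cyclic dinucleotide cGAMP, which activates STING on the endoplasmic reticulum. RIG-I and MDA5 bind viral-type or self double-stranded RNA and signal through MAVS on mitochondria. Both routes recruit the kinases TBK1 and IKKε, which phosphorylate IRF3, and IRF3 then drives Ifnb1, the gene of interferon-β. Type I interferon in turn raises the expression of several of the sensors. Radiation can place tumour DNA in the cytosol, and in human lung cancers STING was reported to be lower where LKB1 is lost.

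The samples were mouse tumours of LLC1, a Lewis lung carcinoma line, grown from LLC1-sgLkb1 cells with a guide against Lkb1 (genotype label LKB1 knockdown, here KD) or from unmodified LLC1 cells (WT). KD tumours received radiation alone (RT), radiation with an immune checkpoint inhibitor (RI) or the inhibitor alone (ICI), and WT tumours received RI or ICI, with 3 libraries in each of the 5 groups. The labels name neither the inhibitor nor the radiation dose, and they do not say whether LLC1-sgLkb1 is 1 clone or whether libraries came from separate animals, so p-values measure the spread between these libraries only. Every tumour was treated, so there is no untreated baseline, and RT has no WT counterpart.

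The 12 RI and ICI libraries held 17289313 to 23471917 counts, and 16617 genes were tested. The libraries are of whole tumours and so hold host cells as well as carcinoma cells. Stk11, the gene of LKB1, had 111 to 139 CPM (counts scaled to library size) in KD RI and 140 to 147 CPM in WT RI, with a log2 fold change of -0.18 ± 0.12 (SE, edgeR adjusted p = 0.304). Under ICI its change was -0.31 ± 0.11 (edgeR adjusted p = 0.0556), so its RNA did not pass the test in either treatment. The description of KD ICI 3 holds CON, at odds with its treatment label, while other libraries of the same naming hold ICI+RT. What CON stands for is not stated. KD ICI 3 stands apart from KD ICI 1 and KD ICI 2 in several of the genes below, so results that rest on it are given with and without it. KD ICI 1 and KD ICI 2 share the start H80 of their descriptions. Fits without KD ICI 3 leave only that pair in KD ICI. Whether the pair came from separate tumours is not stated, so its spread, and the p-values of those fits, may not measure the spread between tumours.

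Within each treatment, RNA of the sensors MDA5 and ZBP1, of the adaptor STING and of the kinase IKKε was lower in KD, that of cGAS passed the test under ICI, and that of MAVS, IRF3 and TBK1 did not pass in either. Under RI, 4 of the 8 genes tested were lower in KD (Tmem173, Ifih1, Zbp1 and Ikbke) and 0 were higher, against a background of 12.1% of all genes tested called lower, 9.18% called higher and 21.2% in either direction. Under ICI, 5 of the 8 were lower in KD (the same 4 and Mb21d1) and 0 were higher, against 14.9% of all genes called lower, 16.1% called higher and 31% in either direction. In 5 of the 8 genes (those 4 and Mb21d1) no KD library overlapped WT and KD was below in both treatments, as for 13.3% of all genes tested (22.7% under RI and 21.7% under ICI). The median log2 fold change of the 8 genes was -0.64 under RI and -0.70 under ICI, while the median over all genes tested was 0.02 under RI and 0.00193 under ICI. Levels below are CPM on the TMM scale (library sizes rescaled by trimmed mean of M-values), fold changes are KD over WT in log2 with their standard error, and adjusted p-values are from edgeR's quasi-likelihood test over all genes tested.

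**Figure D1:**
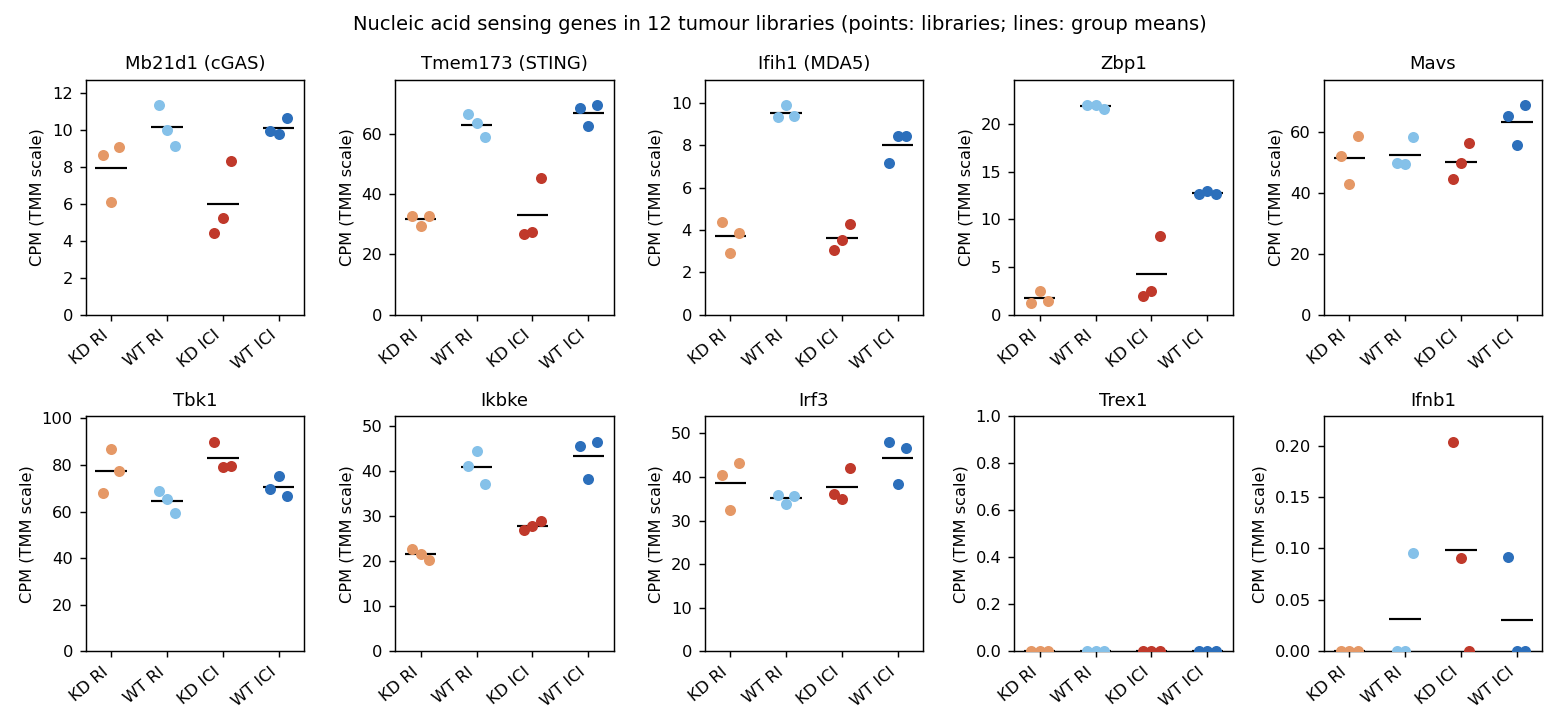
CPM (y axis, TMM scale, starting at 0, own range per panel) of the 10 genes in the KD RI, WT RI, KD ICI and WT ICI libraries (points) with the group mean (line). Tmem173, Ifih1, Zbp1 and Ikbke sit lower in every KD library than in every WT library of the same treatment, Zbp1 in KD ICI 3 (8.21 CPM) sits above the other KD libraries, and Trex1 is at 0 throughout.

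Mb21d1 (chromosome 9, 78430526 to 78443237 on GRCm38) encodes cGAS, the DNA sensor. It had 8.64, 6.08 and 9.09 CPM in KD RI, against 11.3, 10.01 and 9.14 CPM in WT RI. Under ICI it had 4.42, 5.25 and 8.32 CPM in KD, against 9.94, 9.78 and 10.6 CPM in WT. The groups did not overlap in either treatment, but those of RI were separated by a narrow gap and the highest KD ICI value was that of KD ICI 3. The fold change was -0.36 ± 0.23 under RI (adjusted p = 0.313), not past the threshold of 0.05, and -0.75 ± 0.23 under ICI (adjusted p = 0.0278), past it. The ICI call was lost without any 1 of 5 ICI libraries: the adjusted p was 0.103 without KD ICI 1, 0.0915 without KD ICI 2, 0.0616 without WT ICI 1, 0.0533 without WT ICI 2 and 0.0779 without WT ICI 3, while without KD ICI 3 the fold change was -1.06 (adjusted p = 0.000889), in a fit where 45.7% of all genes tested passed.

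Tmem173 (chromosome 18, 35733678 to 35740554) encodes STING, the adaptor that cGAMP activates. Its values were 32.7, 29.6 and 32.7 CPM in KD RI and 66.7, 63.6 and 59.0 CPM in WT RI. In the ICI groups it had 26.8, 27.5 and 45.3 CPM in KD and 68.6, 62.8 and 69.7 CPM in WT. KD libraries thus held about the same level in both treatments, with KD ICI 3 highest among them, and no KD library reached a WT library. KD over WT gave -0.99 ± 0.17 under RI (adjusted p = 0.00126) and -1.01 ± 0.17 under ICI (adjusted p = 0.00111). Both calls held in every alternative that kept more than 1 library in each group compared. With each library left out in turn, the adjusted p was up to 0.00814 under RI and 0.00606 under ICI. Without KD ICI 3 the ICI change was -1.31.

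Trex1 (chromosome 9, 109057933 to 109059734) encodes the exonuclease that degrades cytosolic DNA before cGAS can bind it. It had 0 counts in all 12 libraries, and 3 counts, the number a count of 0 still allows, correspond to 0.120 to 0.204 CPM. Its whole span lies inside that of Gm42641 (chromosome 9, 109057933 to 109074120) in the count table, and in GENCODE M21 100% of its exon bases are shared on the same strand with Atrip. Gm42641, looked up after these zeros were seen, had 1.496, 1.04 and 1.14 CPM in KD RI against 1.54, 1.40 and 1.52 CPM in WT RI, and 0.680, 0.950 and 0.988 CPM in KD ICI against 1.92, 2.15 and 1.99 CPM in WT ICI. No source used here states how reads over shared exons were counted, so the zeros do not give the level of Trex1 RNA.

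Ifih1 (chromosome 2, 62595798 to 62646255) encodes MDA5, the sensor of long double-stranded RNA. It had 4.38, 2.91 and 3.84 CPM in KD RI, against 9.36, 9.91 and 9.38 CPM in WT RI. Under ICI it had 3.06, 3.53 and 4.26 CPM in KD, against 7.14, 8.46 and 8.44 CPM in WT. No KD library came near a WT library in either treatment. In log2, KD differed from WT by -1.36 ± 0.20 under RI (adjusted p = 0.000427) and -1.14 ± 0.20 under ICI (adjusted p = 0.00136). Both calls held in every alternative that kept more than 1 library in each group compared.

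Ddx58, which encodes RIG-I, the sensor of short RNA with a 5′ triphosphate, belongs to the list of RIG-I-like receptors that surrounds these genes. Its levels were 32.0, 29.6 and 27.99 CPM in KD RI and 47.2, 52.1 and 51.3 CPM in WT RI. In KD ICI they were 29.2, 36.4 and 38.4 CPM and in WT ICI 51.6, 62.5 and 51.7 CPM. RIG-I was thus lower in every KD library, with a fold change of -0.75 ± 0.12 under RI (adjusted p = 0.000896) and -0.67 ± 0.12 under ICI (adjusted p = 0.00172), a smaller difference on the log2 scale than that of Ifih1. The third receptor, Dhx58 (LGP2, which modulates the other two), averaged 4.06 ± 0.505 CPM in KD RI and 14.7 ± 0.737 CPM in WT RI, and 4.77 ± 0.871 CPM in KD ICI and 10.8 ± 0.411 CPM in WT ICI (SD, n = 3 each). Its fold change was -1.85 ± 0.17 under RI (adjusted p = 1.7e-05) and -1.17 ± 0.17 under ICI (adjusted p = 0.000483).

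Both RNA sensors carry, just after their RefSeq transcription start, a match to GAAA, 2 bases of any kind and GAAA, a pattern like the interferon-stimulated response element (ISRE) bound by interferon-activated transcription factors. The sites are shown for their sequence only, and whether they bear on the levels in KD was not tested. Dhx58 was not searched. They are written 5′ to 3′ on the gene's strand, from RefSeq on GRCm38.p6 (Ifih1 at chr2:62646206-62646233 and Ddx58 at chr4:40239804-40239833, both minus strand), with the ISRE-like match in capitals.
Ifih1: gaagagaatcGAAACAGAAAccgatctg
Ddx58: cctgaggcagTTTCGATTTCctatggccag
The Ifih1 match spans bases 33 to 42 from the start, and the Ddx58 match spans bases 3 to 12 and reads on the opposite strand. Windows of 300 bases, from 250 before to 50 after the start, were searched on both strands for 8 of the 10 genes, all but Tmem173 and Zbp1. No window was available for Zbp1, and Tmem173 was not searched. Both were lower in KD in both treatments, and the counts below do not cover them. Ifih1 was the 1 gene of these 8 with an ISRE-like match, and 3.44% of 32851 promoter windows hold one. The shorter IRF core, AA, 2 bases of any kind and GAAA, which lies within the ISRE-like letters, was present in 3 of the 8 (Ifih1, Ifnb1 and Ikbke) and in 23.9% of all windows. A match describes letters in the reference and not binding.

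Mavs (chromosome 2, 131234063 to 131248025) encodes the mitochondrial adaptor of RIG-I and MDA5. It had 52.3, 43.0 and 58.8 CPM in KD RI, against 49.7, 49.5 and 58.5 CPM in WT RI, and the groups overlapped. Under ICI it had 44.6, 49.9 and 56.3 CPM in KD, against 65.2, 55.9 and 69.0 CPM in WT, with KD ICI 3 just above the lowest WT library. Fold changes were -0.03 ± 0.14 under RI (adjusted p = 0.895; 95% interval -0.33 to 0.26) and -0.33 ± 0.14 under ICI (adjusted p = 0.0812). Without KD ICI 3 the ICI change was -0.42 (adjusted p = 0.0216), and without WT ICI 2 it was -0.46 (0.0494). Scaled by library size alone it was -0.54 (adjusted p = 0.0162).

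Zbp1 (chromosome 2, 173206612 to 173218923) encodes a sensor of Z-form nucleic acids that can engage RIPK3 and cell death, and it is strongly induced by interferon. It had 1.22, 2.50 and 1.40 CPM in KD RI, against 21.9, 22.0 and 21.6 CPM in WT RI. Under ICI it had 1.97, 2.44 and 8.21 CPM in KD, against 12.6, 13.0 and 12.6 CPM in WT. WT libraries were tight within each treatment, KD libraries were low, and KD ICI 3 stood between the other KD libraries and WT. The fold change was -3.67 ± 0.47 under RI (adjusted p = 0.000216), the largest of the 8 genes tested, and -1.59 ± 0.43 under ICI (adjusted p = 0.015). Under ICI it was -2.52 without KD ICI 3 (adjusted p = 6.91e-06), and it missed the threshold without KD ICI 2 (-1.30, adjusted p = 0.0555) and when only the 6 ICI libraries were fitted (0.0634).

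Tbk1 (chromosome 10, 121546455 to 121586787) encodes the kinase that phosphorylates STING, MAVS and IRF3. It had 67.8, 86.9 and 77.2 CPM in KD RI, against 68.6, 65.6 and 59.5 CPM in WT RI. Under ICI it had 90.0, 79.1 and 79.7 CPM in KD, against 69.5, 75.3 and 66.6 CPM in WT. Its values had the opposite sign to those of the sensors: KD ICI libraries all lay above WT ICI, as for 20% of all genes, while the RI groups overlapped. KD over WT gave 0.26 ± 0.11 under RI (adjusted p = 0.113) and 0.23 ± 0.11 under ICI (adjusted p = 0.119), and missed the threshold each time. The mean of both treatments was 0.25 ± 0.08 (adjusted p = 0.0213), but that call was lost when counts were scaled by library size alone (0.10, adjusted p = 0.298), without a filter on low counts (0.0950), or without KD RI 2 (0.0574), WT RI 2 (0.0578), WT RI 3 (0.0797), WT ICI 1 (0.0696) or WT ICI 3 (0.0839). In that average 6 of the 8 genes passed, 5 lower and Tbk1 higher, against 40.7% of all genes tested (20.5% lower and 20.2% higher).

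Ikbke (chromosome 1, 131254343 to 131279606) encodes IKKε, the inducible relative of TBK1. Its values were 22.6, 21.5 and 20.3 CPM in KD RI and 41.1, 44.3 and 37.1 CPM in WT RI. In the ICI groups it had 26.8, 27.7 and 28.8 CPM in KD and 45.4, 38.1 and 46.5 CPM in WT. KD libraries were low and close together, and none overlapped WT, with KD ICI 3 close to KD ICI 1 and KD ICI 2. The fold change was -0.93 ± 0.11 under RI (adjusted p = 9.8e-05) and -0.64 ± 0.11 under ICI (adjusted p = 0.00123). Of the kinases, Ikbke thus passed as lower in KD in both treatments and Tbk1 passed in neither.

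Irf3 (chromosome 7, 44997648 to 45002848) encodes the transcription factor at the end of both routes. It had 40.4, 32.5 and 43.2 CPM in KD RI, against 35.9, 33.8 and 35.6 CPM in WT RI. Under ICI it had 36.2, 34.9 and 42.1 CPM in KD, against 48.1, 38.5 and 46.7 CPM in WT. The groups overlapped in both treatments. Fold changes were 0.14 ± 0.13 under RI (adjusted p = 0.492; 95% interval -0.14 to 0.42) and -0.24 ± 0.13 under ICI (adjusted p = 0.178; 95% interval -0.51 to 0.04). The RI value changed sign within the JIAN libraries described further on (-0.11), and the ICI value passed when counts were scaled by library size alone (-0.44, adjusted p = 0.0281).

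**Figure D2:**
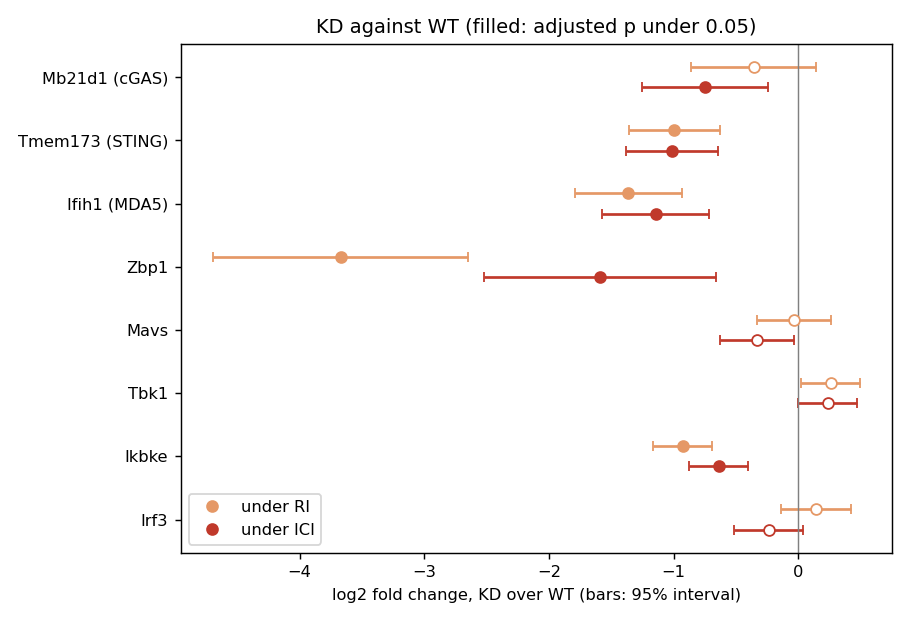
Log2 fold change of KD over WT (x axis) with its 95% interval (bars) for the 8 genes tested, under RI (orange) and under ICI (red), filled where the adjusted p was under 0.05. Tmem173, Ifih1, Zbp1 and Ikbke lie below 0 in both treatments, from -0.64 to -3.67, while the intervals of Mavs and Irf3 under RI span 0.

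Ifnb1 (chromosome 4, 88522025 to 88522774), the interferon gene that the pathway controls, was almost unread in these tumours. It had 0 counts in all 3 KD RI libraries against 0, 0 and 2 counts in WT RI, and 3, 2 and 0 counts in KD ICI against 2, 0 and 0 counts in WT ICI. No library was above the 3 counts taken as the floor, so no fold change is given and no difference was detectable at this depth. Its upstream sequence is shown because it carries several such elements next to each other, 3 IRF cores (from base -159 to -119) followed by a match to GGGA, 2 bases of any kind and TTCC, an NF-kB-like pattern, at bases -116 to -107. It covers chr4:88522795-88523044 on the minus strand, is given 5′ to 3′ from RefSeq on GRCm38.p6, and has those 4 matches in capitals.
Ifnb1: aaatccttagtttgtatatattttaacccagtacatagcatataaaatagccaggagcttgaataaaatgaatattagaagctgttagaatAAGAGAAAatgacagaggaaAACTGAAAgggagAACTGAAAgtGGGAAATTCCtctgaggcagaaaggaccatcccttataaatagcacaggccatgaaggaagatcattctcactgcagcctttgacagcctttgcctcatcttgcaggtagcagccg
The NF-kB-like pattern is in 1.47% of all windows, and Ifnb1 was the 1 gene of the 8 searched that held it. Other interferon genes were as sparse: Ifna1, Ifna2, Ifna4, Ifna5, Ifnk, Ifnl2 and Ifnl3 had 2, 5, 0, 1, 2, 0 and 1 counts over all 12 libraries, and Ifne had 21.

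RI was then compared with ICI within each genotype, that is, tumours with and without radiation added to the inhibitor. The library namings described further on run with this contrast. WT RI is all JIAN while WT ICI 1 and WT ICI 3 are TUI, and KD RI 1, KD RI 3 and KD ICI 3 are SG793. A difference between namings thus cannot be cleanly told apart from one of treatment. With edgeR 0 of the 8 genes passed in KD tumours and 0 in WT tumours, where 0.0843% of all genes passed in KD and 0.283% in WT. At an unadjusted p under 0.05 there were 2 in KD and 1 in WT, and DESeq2 called 0 in each. In KD these were Ikbke (-0.37 ± 0.11, adjusted p = 0.186), with every KD RI library below every KD ICI library, and Zbp1 (-1.31 ± 0.46, adjusted p = 0.248), whose groups overlapped. In WT it was Irf3 (-0.34 ± 0.13, adjusted p = 0.335), with every WT RI library below every WT ICI library. Libraries separated in that way for 7.49% of all genes in KD and 13.5% in WT.

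Zbp1 had a lower mean under RI than under ICI in KD and a higher one in WT. The KD direction rests on the SG793 libraries described further on and turned without them (0.17). That fit left 1 KD RI library, so its value is given with no test. In KD it averaged 1.71 ± 0.690 CPM under RI and 4.21 ± 3.48 CPM under ICI, and in WT 21.8 ± 0.235 CPM under RI and 12.7 ± 0.225 CPM under ICI (SD, n = 3 each). The WT change was 0.78 ± 0.41 (adjusted p = 0.527), with every WT RI library above every WT ICI library, as for 13% of all genes. The difference of the treatment effects between KD and WT was -2.08 ± 0.61 (adjusted p = 0.171) and did not pass with edgeR, where 0 of the 8 genes passed and 0.367% of all genes did. Zbp1 was the 1 gene of the 8 with an unadjusted p under 0.05 there, and DESeq2 called it (-2.10, adjusted p = 0.0179). Without KD ICI 3 the difference was smaller but passed (-1.15, adjusted p = 0.0342), as it did for 11.1% of all genes tested then. The WT change passed there too (0.78, adjusted p = 0.0483), with 2.04% of all genes. The same library bears on Mb21d1, whose RI against ICI change in KD was 0.40 ± 0.23 (adjusted p = 0.44) with KD ICI 3 and 0.71 without it (adjusted p = 0.0259), where 19.4% of all genes passed.

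The RT libraries of KD tumours are in a separate table of FPKM values, which scale fragments by gene length and library depth, normalized apart from the others, so the levels below are set side by side without a test. On the FPKM scale, which allows genes to be ranked against each other, STING led the set in KD RT with 39.4, 43.3 and 33.2 FPKM. Tbk1 (14.9, 19.2 and 16.6 FPKM), Mavs (12.5, 16.8 and 10.1 FPKM) and Irf3 (12.05, 13.8 and 8.69 FPKM) came next, and their ranges overlapped except that Irf3 stayed below Tbk1. Ikbke (1.78, 1.98 and 1.78 FPKM) and Trex1 (1.41, 0.904 and 3.53 FPKM) followed, with overlapping ranges.

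The sensors were lower, although the highest Mb21d1 value exceeded the lowest of Trex1 and the ranges of Mb21d1 and Zbp1 overlapped: Mb21d1 had 0.741, 0.923 and 0.472 FPKM in KD RT, Zbp1 0.524, 0.522 and 0.337 FPKM, and Ifih1 0.263, 0.318 and 0.209 FPKM. Ifnb1 was at 0.0733, 0.0716 and 0 FPKM. In KD RI, Tmem173 was at 12.5 to 14.2 FPKM, Tbk1 at 11.6 to 14.4 FPKM, Mavs at 7.38 to 10.2 FPKM, Irf3 at 3.77 to 5.07 FPKM and Ikbke at 1.69 to 1.91 FPKM. In KD ICI they had 9.90 to 18.9, 12.7 to 13.0, 6.70 to 9.53, 3.67 to 4.81 and 1.93 to 2.33 FPKM in that order of genes. Tmem173 led with 26.1 to 30.4 FPKM in WT RI, where Tbk1 had 10.3 to 12.3 FPKM, and with 29.1 to 32.1 FPKM in WT ICI, where Tbk1 had 12.03 to 13.7 FPKM. The ranges of Tmem173 and Tbk1 thus overlapped in KD RI and KD ICI and lay apart in WT.

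By FPKM, 5 genes (Tmem173, Tbk1, Mavs, Irf3 and Trex1) had their highest mean of the 3 KD groups in RT, and Mavs was the 1 of them whose RT range overlapped another group. The share of all genes highest or apart in RT was not computed, and the tables were normalized separately. These counts thus do not set the genes apart from others. Ranks within each library gave other counts: 2 genes (Tmem173 and Irf3) were highest in RT by mean percentile among the rows above 0, and 10 of the 10 by mean position from the top row. Libraries with a gene at 0 were left out of its mean position, and a group all at 0 was placed last. Ifnb1 counts among the 10 on that rule, although its mean was 0.0483 FPKM in KD RT and 0.115 FPKM in KD ICI. Both ranks move with the number of rows above 0, which was 16600 to 17027 in KD RT, 22871 to 23584 in KD RI and 22227 to 23694 in KD ICI, and Trex1, at 0 in the count table, has no percentile there. Trex1 is the clearest gap between the tables, since RT lists it above 0 in all 3 libraries and the other table at 0 in all 12, and Gm42641 had 1.82 to 3.39 FPKM in KD RT against 0.131 to 0.194 FPKM in KD RI and 0.0749 to 0.123 FPKM in KD ICI.

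**Figure D3:**
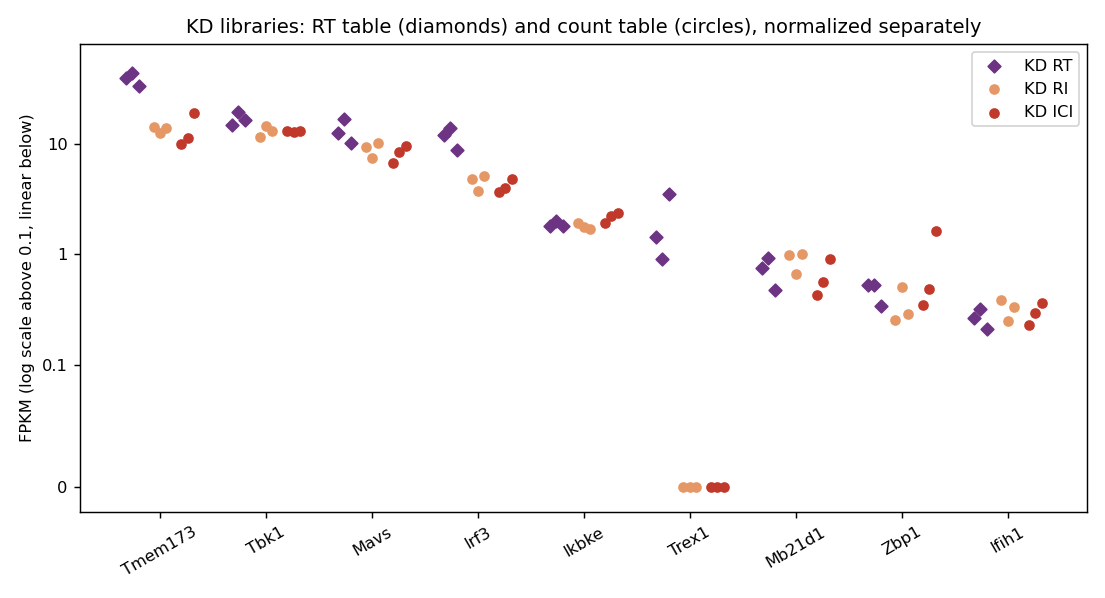
FPKM (y axis, log scale above 0.1 and linear below) in the KD libraries of the RT table (diamonds) and of the count table (circles, RI and ICI), which were normalized separately. Ifnb1 is not drawn, STING (Tmem173) is highest in KD RT at 33.2 to 43.3 FPKM, and Trex1 is above 0 only in the RT table.

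The genes around the pathway were read from lists of related genes. Their counts, and those of the cell markers further on, stand beside the shares of all genes tested. These were 12.1% lower and 9.18% higher in KD under RI, and 14.9% lower and 16.1% higher under ICI. Of 13 other DNA sensors and inflammasome genes tested, 7 were lower and 0 higher in KD under RI, and 5 were lower and 2 higher under ICI. Ifi203, an interferon-inducible PYHIN protein, averaged 8.002 ± 3.24 CPM in KD RI and 38.6 ± 4.23 CPM in WT RI, with a fold change of -2.27 ± 0.22 (adjusted p = 2.14e-05), and was lower under ICI too (-1.74 ± 0.21, adjusted p = 0.000185). Of the same family, Ifi204 was lower under RI (-2.37 ± 0.25, adjusted p = 4.51e-05) and ICI (-1.08 ± 0.24, adjusted p = 0.00539), and so was Mndal (-2.36 ± 0.26, adjusted p = 6.05e-05 under RI; -1.69 ± 0.25, adjusted p = 0.000569 under ICI). Aim2, the PYHIN sensor that builds an inflammasome, was higher: it averaged 63.4 ± 19.7 CPM in KD ICI and 30.8 ± 2.33 CPM in WT ICI, with a fold change of 1.04 ± 0.19 (adjusted p = 0.00164), against 0.53 ± 0.19 under RI (adjusted p = 0.0621). Lrrfip1 was higher under ICI (0.40 ± 0.10, adjusted p = 0.0114), a call lost without WT ICI 2 or WT ICI 3 (up to 0.0712). With 1 library left out in turn, the lower genes of the list numbered 5 to 8 under RI and 4 to 7 under ICI, and 1 gene was higher under RI without KD ICI 1 or KD ICI 3.

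Of 11 RIG-I-like receptors and regulators tested, 4 were lower and 0 higher in KD under RI, and 3 were lower and 4 higher under ICI. Of the ubiquitin ligases of the route, Rnf125 was higher in KD ICI by 0.98 ± 0.22 (adjusted p = 0.00591) and Trim25, which activates RIG-I, by 0.35 ± 0.10 (adjusted p = 0.0147). The ligases Rnf135 (-0.54 ± 0.20, adjusted p = 0.0534) and Mex3c (-0.29 ± 0.11, adjusted p = 0.0567), named after their values were seen, had the opposite sign under ICI and did not pass. The Trim25 call was lost without KD ICI 1 and without either the first or the third WT ICI library (up to 0.0916), and over the 12 libraries left out in turn the list's ICI counts ran from 2 to 5 lower (5 without WT RI 3) and from 1 to 5 higher, with 1 or 2 higher without any of 10 of the 12. Under RI neither ligase passed (Rnf125 -0.07 ± 0.22, adjusted p = 0.868; Trim25 -0.07 ± 0.10, adjusted p = 0.654).

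Of 10 effectors of double-stranded RNA, 5 were lower and 0 higher in KD under RI, and 4 were lower and 1 higher under ICI. Oas3, which makes the second messenger that activates RNase L, averaged 7.31 ± 0.782 CPM in KD RI and 31.8 ± 4.6 CPM in WT RI (-2.12 ± 0.18, adjusted p = 9.39e-06), and 11.7 ± 1.38 CPM in KD ICI and 16.01 ± 3.27 CPM in WT ICI (-0.45 ± 0.17, adjusted p = 0.0646). Oas2 was lower under RI (-1.59 ± 0.16, adjusted p = 3.61e-05) and under ICI (-0.74 ± 0.16, adjusted p = 0.00434), and so was Oas1b (-1.29 ± 0.26, adjusted p = 0.00377 under RI; -0.97 ± 0.26, adjusted p = 0.0141 under ICI). The ICI call of Oas1b was lost without KD ICI 1 (adjusted p = 0.0546), and so was that of Oasl2 (0.0991), named for this after its values were seen, so that 2 genes of the list were lower under ICI there, within a range of 2 to 5 over the libraries left out in turn. Oasl1, a repressor of Irf7 translation in mice, was higher under ICI (0.82 ± 0.17, adjusted p = 0.00387), with 0.03 ± 0.17 under RI (adjusted p = 0.931). The Oas genes are a family of similar copies, and no source used here states how reads shared between them were counted.

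Of 14 genes of nucleic acid clearance and cGAMP turnover, 5 were lower and 0 higher in KD under RI, and 7 were lower and 1 higher under ICI. Dnase1l3, a secreted DNase, averaged 0.350 ± 0.161 CPM in KD RI and 3.66 ± 1.32 CPM in WT RI (-3.36 ± 0.45, adjusted p = 0.00025), and 0.339 ± 0.195 CPM in KD ICI and 1.75 ± 0.151 CPM in WT ICI (-2.40 ± 0.46, adjusted p = 0.00246). Its KD levels lie near the floor, with 20 counts in all over KD RI and 18 over KD ICI, so the size of its change is uncertain. Pld4, an endolysosomal exonuclease, was lower, with a fold change of -2.28 ± 0.33 under RI (adjusted p = 0.000514) and -1.67 ± 0.32 under ICI (adjusted p = 0.00257). Slc19a1, a cGAMP importer in human cells, was higher under ICI (0.37 ± 0.13, adjusted p = 0.0412), a call lost without any of 10 of the 12 libraries (up to 0.239).

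Among 10 genes of STING trafficking and regulation, 2 were lower and 1 higher in KD under RI, and 3 were lower and 3 higher under ICI. The RI counts lie near the shares of all genes tested, 12.1% lower and 9.18% higher. Under ICI those shares were 14.9% lower and 16.1% higher. Nlrc3, which restrains STING, was lower (-1.64 ± 0.27, adjusted p = 0.000911 under RI; -1.16 ± 0.26, adjusted p = 0.0056 under ICI), and so was Usp18 (-1.53 ± 0.28, adjusted p = 0.00207; -1.30 ± 0.28, adjusted p = 0.00446). Tmed2, a vesicle cargo receptor, was higher in both (0.47 ± 0.09, adjusted p = 0.00355; 0.46 ± 0.09, adjusted p = 0.00355), and Rhbdf2, the STING partner iRhom2, under ICI (0.69 ± 0.12, adjusted p = 0.00152).

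Of 15 kinase scaffolds and transcription factors, 3 were lower and 2 higher in KD under RI, and 4 were lower and 7 higher under ICI. Among the lower genes, the transcription factor Irf1 averaged 30.4 ± 3.63 CPM in KD RI and 161 ± 17.9 CPM in WT RI (-2.40 ± 0.16, adjusted p = 1.76e-06), and 40.2 ± 9.17 CPM in KD ICI and 85.1 ± 3.12 CPM in WT ICI (-1.08 ± 0.15, adjusted p = 0.000394). Irf5, of the same family, was lower, with a fold change of -2.38 ± 0.21 under RI (adjusted p = 1.41e-05) and -1.56 ± 0.21 under ICI (adjusted p = 0.000291). The named higher genes were Tbkbp1, an adaptor of TBK1, by 0.52 ± 0.09 under RI (adjusted p = 0.00117) and 0.53 ± 0.09 under ICI (adjusted p = 0.000977), Ikbkg (NEMO) by 0.70 ± 0.17 under RI (adjusted p = 0.0112) and 0.73 ± 0.17 under ICI (adjusted p = 0.00728), and Optn, another TBK1 adaptor, by 1.03 ± 0.21 under ICI (adjusted p = 0.00307) with 0.17 ± 0.21 under RI (adjusted p = 0.626). The adaptor Traf2, by contrast, was lower under ICI (-0.48 ± 0.15, adjusted p = 0.0289), a call lost without any of 5 of the 6 ICI libraries (up to 0.109). With 1 library left out in turn the ICI counts ran from 3 to 5 lower and from 4 to 7 higher: without WT ICI 2, Tank (adjusted p = 0.121), Ikbkb (0.0606) and Rela (0.219) no longer passed, and Rela was lost without any of 10 of the 12. Traf2 and these 3 genes are named after their values were seen.

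Downstream of ZBP1, 1 of 6 death pathway genes was lower and 0 higher in KD under RI, where 21.2% of all genes passed in either direction. Under ICI 0 were lower and 1 higher, where 31% of all genes passed. In that comparison 2 were lower without KD ICI 3, where 45.7% of all genes passed, and 1 without WT ICI 3, where 21% passed. The counts alone thus do not set this list apart. Ripk3, the kinase that ZBP1 engages, had 4.21, 3.53 and 3.01 CPM in KD RI against 9.89, 11.8 and 9.23 CPM in WT RI (-1.52 ± 0.24, adjusted p = 0.000719), and 7.88, 4.34 and 7.69 CPM in KD ICI against 8.29, 7.34 and 8.74 CPM in WT ICI (-0.29 ± 0.23, adjusted p = 0.351). Mlkl, the pore protein that RIPK3 activates, was higher under ICI (0.47 ± 0.10, adjusted p = 0.00444) with -0.03 ± 0.10 under RI (adjusted p = 0.873). The difference between the treatments did not pass for Ripk3 (adjusted p = 0.143), Mlkl (0.158), Optn (0.211), Oasl1 (0.177), Rnf125 (0.171), Trim25 (0.192) or Aim2 (0.419).

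Of 7 interferon receptor and signalling genes that passed the filter, 5 were lower in KD under RI and 3 under ICI, with 0 higher in each. Signalling factors were among them, Stat2 with a fold change of -0.80 ± 0.09 under RI (adjusted p = 7.26e-05) and -0.37 ± 0.09 under ICI (adjusted p = 0.00817), and Irf9 with one of -0.89 ± 0.13 under RI (adjusted p = 0.000459) and -0.72 ± 0.13 under ICI (adjusted p = 0.00175). Of 13 interferon-stimulated readouts, 13 were lower in KD under RI (median -2.34) and 11 under ICI (median -1.47), with 0 higher in each, and the ICI count ran from 8 to 12 over the libraries left out in turn. Irgm1, an interferon-induced GTPase, averaged 14.2 ± 1.08 CPM in KD RI and 112 ± 4.84 CPM in WT RI (-2.99 ± 0.13, adjusted p = 6.41e-08), and 17.002 ± 3.18 CPM in KD ICI and 47.3 ± 1.08 CPM in WT ICI (-1.47 ± 0.12, adjusted p = 2.69e-05). Ccl5, a chemokine for T cells, was lower, with a fold change of -3.57 ± 0.34 under RI (adjusted p = 2.31e-05) and -2.45 ± 0.32 under ICI (adjusted p = 0.000268).

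**Figure D4:**
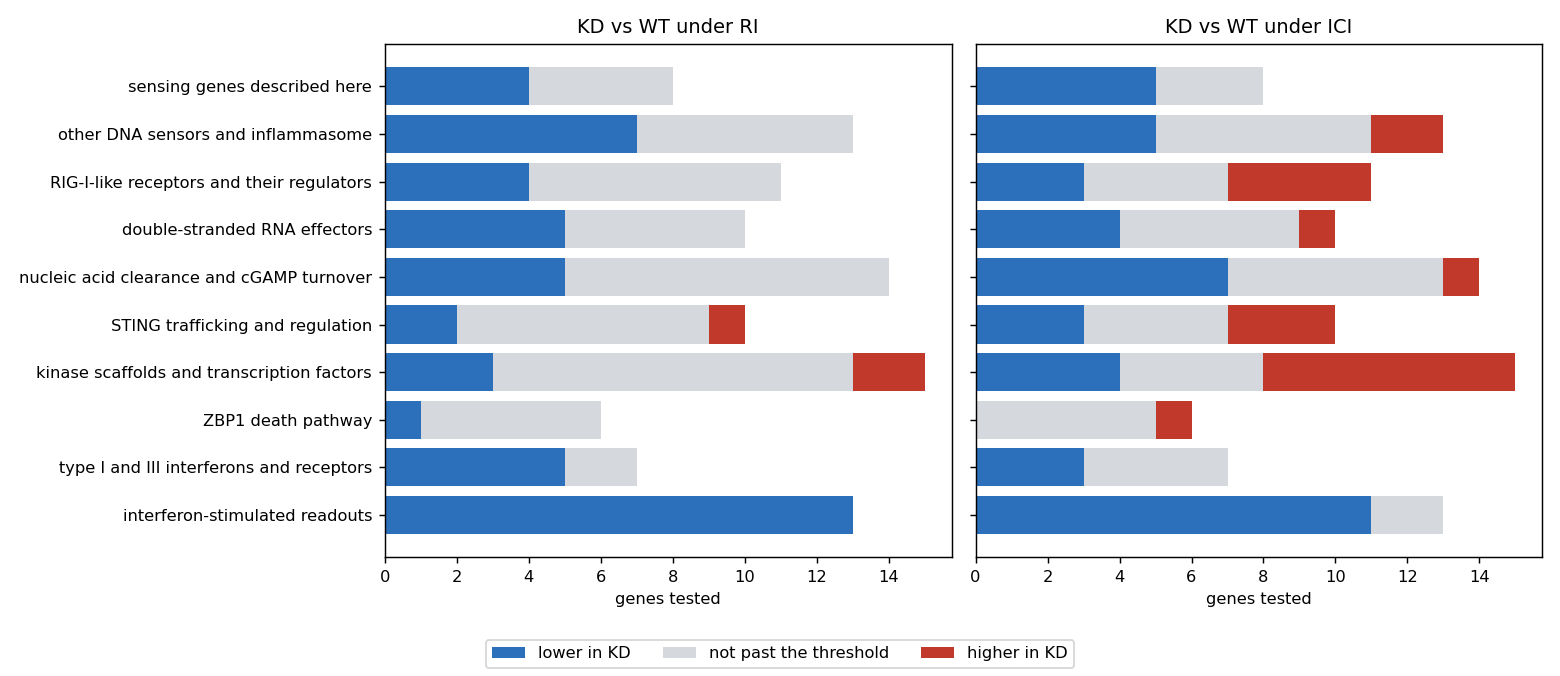
Genes tested in each list (x axis, number of genes) that were lower in KD (blue), not past the threshold (grey) or higher in KD (red), under RI (left) and under ICI (right). The interferon-stimulated readouts are lower in 13 of 13 genes under RI and 11 of 13 under ICI, while kinase scaffolds and transcription factors are mixed, with 3 lower and 2 higher under RI and 4 lower and 7 higher under ICI. Of all genes tested, 12.1% were lower and 9.18% higher under RI, and 14.9% lower and 16.1% higher under ICI.

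In the comparison of RI with ICI, 3 genes of these lists passed, all of them in WT tumours and higher under RI. As above, treatment and library naming cannot be cleanly told apart in this contrast. Irgm1 rose by 1.25 ± 0.12 (adjusted p = 0.0027), Irf1 by 0.92 ± 0.15 (adjusted p = 0.026) and Oas3 by 0.99 ± 0.17 (adjusted p = 0.0381), and 0 list genes passed in KD tumours. The Irgm1 call held without each library in turn (up to 0.0437). That of Irf1 was lost without KD RI 3 or without any of the 6 WT libraries (up to 0.198), and that of Oas3 without 9 of the 12 libraries (up to 0.202). The treatment effects of these genes differed between KD and WT (KD minus WT), with -1.51 ± 0.17 for Irgm1 (adjusted p = 0.00568), -1.32 ± 0.21 for Irf1 (adjusted p = 0.0252) and -1.67 ± 0.25 for Oas3 (adjusted p = 0.0167). The Irf1 difference was lost without 8 of the 12 libraries (up to 0.132) and the Oas3 difference without 6 (up to 0.0859).

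Markers of several cell types moved with the same groups. The summed level of 5 leukocyte markers was 70.5 to 94.9 CPM in KD RI and 266 to 342 CPM in WT RI, and 134 to 182 CPM in KD ICI and 271 to 323 CPM in WT ICI, and 5 of 5 were lower in KD in both treatments. The 8 macrophage markers summed to 244 to 320 CPM in KD RI and 670 to 787 CPM in WT RI, and to 327 to 505 CPM in KD ICI and 907 to 1044 CPM in WT ICI, with 7 of 8 lower in KD in both. The 8 T cell markers summed to 0.554 to 2.18 CPM in KD RI and 24.3 to 38.0 CPM in WT RI, and to 1.16 to 2.39 CPM in KD ICI and 18.7 to 27.5 CPM in WT ICI, with Cd3e, Cd3g, Cd3d or Cd8b1 at 0 in 3 KD libraries. Neutrophil markers ran the other way under ICI, with 159 to 616 CPM in KD ICI and 33.0 to 72.6 CPM in WT ICI, and were at 75.2 to 230 CPM in KD RI and 132 to 138 CPM in WT RI. Of 5 dendritic cell markers tested, 1 was lower and 1 higher in KD under RI, and 4 were lower and 1 higher under ICI. The higher one was Flt3 each time, with 20.97 CPM in KD RI and 1.14 CPM in WT RI, and 21.6 CPM in KD ICI and 2.75 CPM in WT ICI (means, n = 3 each). The 5 fibroblast markers summed to 553 to 1113 CPM in KD RI and 264 to 387 CPM in WT RI, and to 453 to 603 CPM in KD ICI and 289 to 549 CPM in WT ICI, with 3 of 5 higher in KD under RI and 1 of 5 under ICI. Some libraries stood out in other lists. Erythroid markers summed to 2181 CPM in KD ICI 1, 766 CPM in KD ICI 2, 765 CPM in WT ICI 2 and 38.3 to 173 CPM elsewhere. Skeletal muscle markers summed to 913 CPM in WT ICI 2, 789 CPM in WT RI 3 and 1.92 to 85.6 CPM elsewhere. Proliferation markers were lowest in KD ICI 1 (669 CPM) and KD ICI 2 (886 CPM), with 1222 to 1619 CPM elsewhere. Sensors and interferon-stimulated genes are expressed in leukocytes as well as in tumour cells, and in these bulk libraries fewer cells of a type and less RNA per cell cannot be told apart. The part of these cells in the differences above was not tested.

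Among the KD libraries, KD ICI 3 had the highest leukocyte sum (182 CPM) and macrophage sum (505 CPM) and also the highest Tmem173 (45.3 CPM) and Zbp1 (8.21 CPM). Of 4 epithelial markers, 3 were tested and 2 of these were lower in KD in both treatments. Krt18 averaged 25.7 CPM in KD RI and 67.4 CPM in WT RI, and 23.2 CPM in KD ICI and 57.5 CPM in WT ICI, with fold changes of -1.39 ± 0.30 under RI (adjusted p = 0.0064) and -1.31 ± 0.30 under ICI (adjusted p = 0.0072). Cdh1 averaged 0.177 CPM in KD RI and 1.04 CPM in WT RI, and 0.115 CPM in KD ICI and 0.813 CPM in WT ICI, and Epcam was at 0 in 5 of the 6 KD libraries. The summed level was mostly Krt8, which did not pass in either treatment, with 566 to 642 CPM in KD RI, 500 to 672 CPM in WT RI, 510 to 781 CPM in KD ICI and 548 to 657 CPM in WT ICI.

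**Figure D5:**
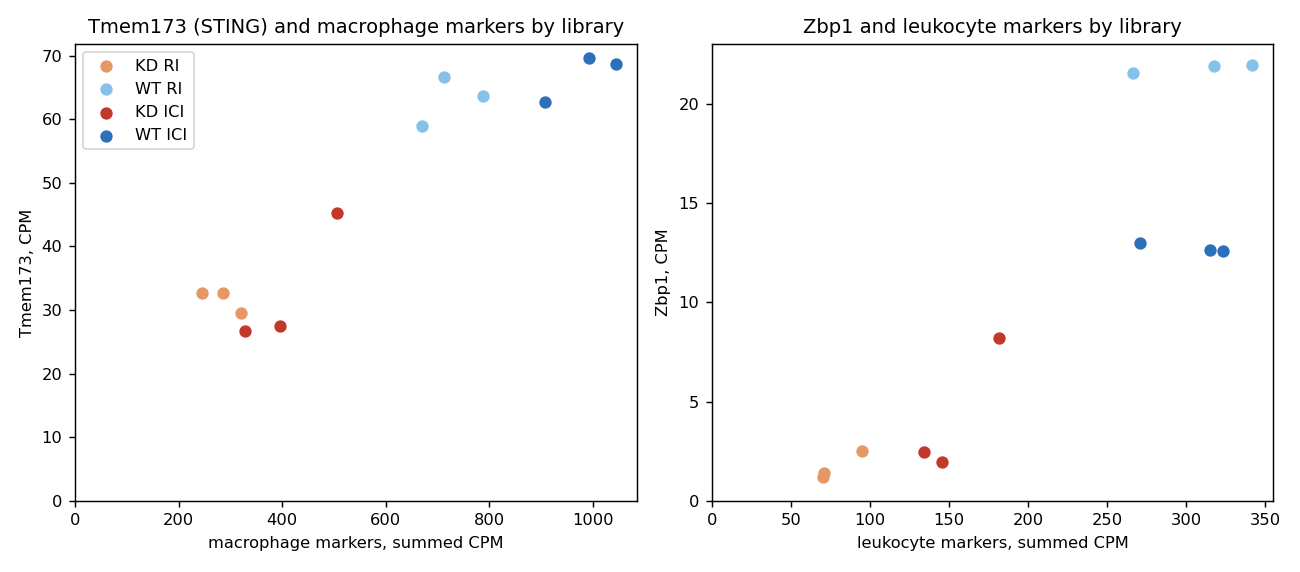
Left, Tmem173 CPM against the summed CPM of 8 macrophage markers, and right, Zbp1 CPM against the summed CPM of 5 leukocyte markers, with 1 point per library (both axes start at 0). KD libraries lie at the lower left of both plots, KD ICI 3 lies nearest to WT among them, and Zbp1 is at 21.6 to 22.0 CPM in WT RI and 12.6 to 13.0 CPM in WT ICI.

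The descriptions of the libraries carry namings (JIAN, TUI and SG793) that do not fall evenly over the groups: WT RI is all JIAN, and SG793 occurs in KD RI 1, KD RI 3 and KD ICI 3 only. What they mean is not stated. Of the 6 JIAN libraries 3 are WT RI and each other group has 1, so their fold changes are given as values with no test. Under RI, 1 KD library against 3 WT libraries gave -1.09 for Tmem173, -1.71 for Ifih1, -3.12 for Zbp1, -0.92 for Ikbke and -0.74 for Mb21d1. Under ICI, 1 KD library against 1 WT library gave -1.23 for Tmem173, -1.46 for Ifih1, -2.72 for Zbp1, -0.50 for Ikbke and -1.14 for Mb21d1.

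Across the 12 libraries, the genes that were lower in KD also ran together. The log2 CPM of Tmem173 correlated with Ifih1, Zbp1 and Ikbke at Pearson r of 0.944, 0.922 and 0.905, while Tbk1 ran against Ifih1 at -0.832 and Irf3 ran with Mavs at 0.850. These values are descriptions over libraries that share their genotype and treatment groups and their depth, and much of each is the gap between KD and WT. The genes most like Tmem173 over the same 12 libraries were Il21r (0.990), Ctsh (0.989) and Aif1 (0.989), those most like Zbp1 were Fgl2 (0.990), Fcgr4 (0.987) and Slc11a1 (0.987), and those most like Ifih1 were Tlx2 (0.988), Gtpbp8 (0.984) and Bst2 (0.983). For Tbk1, Lnpep (0.951), Syne1 (0.951) and Bbs9 (0.947) came closest. With the 4 group means taken out, the 10 pairs among the 5 genes lower in KD ran from 0.154 (Ikbke and Ifih1) to 0.898 (Mb21d1 and Tmem173), with Tmem173 at 0.767 with Zbp1, 0.614 with Ifih1 and 0.399 with Ikbke, and the genes most like Mb21d1 were Camk4 (0.985), Tor1b (0.985) and Ccr2 (0.973). KD ICI 3 weighs on these values. In KD ICI 1, 2 and 3 the log2 CPM was 4.75, 4.78 and 5.50 for Tmem173, 1.05, 1.34 and 3.06 for Zbp1, and 2.17, 2.42 and 3.07 for Mb21d1. Correlations without KD ICI 3 were not computed.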

How the data were processed

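Gene counts and FPKM values (fragments scaled by gene length and library depth) of the KD RI, WT RI, KD ICI and WT ICI libraries, 3 per group, and FPKM alone of 3 KD RT libraries were used as the authors deposited them. The reads were aligned with HISAT2 to GRCm38 (mm10), per the submitters' processing notes, and no source used here states the version, counting tool, annotation or strand setting. The counts were raw whole numbers per gene as deposited, and the deposited FPKM values were used only to set levels side by side, with no test.

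Counts of the 12 libraries were fitted with edgeR 4.0.16 (R 4.3.3, limma 3.58.1) by glmQLFit with robust estimation and glmQLFTest, with TMM scaling, 1 mean per group and filterByExpr at a minimum count of 10 and a minimum total of 15. Benjamini-Hochberg adjustment over all genes tested used a threshold of 0.05. Standard errors were taken from the fold change and its F statistic, and correlations used log2 CPM with a prior count of 2. The procedure was tested on simulated data, where it recovered 50.7% of 2-fold changes in KD against WT under ICI and 19.4% of 2-fold differences of treatment effects between KD and WT. The simulated data had few changed genes (67 of 16250 at 2-fold under ICI), while 31% of genes passed under ICI in the tumours. The recovered shares are thus not the power of the comparisons above. Alternatives covered scaling, count filters, a replicate block, library namings, the groups fitted, each library left out and DESeq2 1.42.0.

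The genes and lists were chosen with earlier results of these data known. From each list, the genes with the smallest adjusted p-values in each direction are named, up to 2 per direction and comparison, and 1 gene that this rule names is not reported here. Leaving out libraries for the list counts, and positions from the top row for KD RT, were added after the data were seen. Gene spans are those of the count table, exon overlaps are from GENCODE M21 and promoter windows from RefSeq. Intervals cover the spread between libraries, and floors cover counting error only.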

Additional observations from a re-analysis of the deposited data

How the results depend on the processing

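Under RI, the 4 lower genes (Tmem173, Ifih1, Zbp1 and Ikbke) passed in each alternative that kept more than 1 KD RI library. The JIAN libraries alone kept 1 KD library a group and are not counted. The fit without the SG793 libraries kept only KD RI 2 in KD RI, so it is counted for ICI alone. Under ICI, Tmem173, Ifih1 and Ikbke passed in 22 of 22 alternatives, Zbp1 in 20 and Mb21d1 in 15. With 1 library left out, the number of genes called ran from 4 to 4 under RI, from 3 to 6 under ICI (3 without KD ICI 2), from 5 to 6 for the mean of both treatments, and from 0 to 1 for RI against ICI in KD, in WT and for their difference. Under ICI the number was 8 without the SG793 libraries, where 44.4% of all genes passed, and 3 when only the groups compared were fitted, where 19.7% did (31% in the reported fit), and for RI against ICI in WT it was 1 under each of these (Zbp1, adjusted p = 0.00916 and 0.00266). For the difference DESeq2 called 1 gene. In KD RT, 2 genes were highest by percentile rank and 10 by position from the top row, against 5 by FPKM. Both ranks move with the number of rows above 0, and no share of all genes was computed for these counts. The cause of these shifts was not tested. Mb21d1 under ICI missed the threshold with KD ICI 1 and KD ICI 2 summed (0.0897) and with only the groups compared (0.0857). Under RI it passed with the naming as a covariate (-0.84, adjusted p = 0.00719), where Tbk1 passed too (0.40, adjusted p = 0.0136). Without the SG793 libraries, with 1 KD RI library left, the RI values were -0.74 for Mb21d1 and 0.43 for Tbk1. These are given with no test.

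Scaling by library size alone moved the median of all genes to -0.21 under ICI and -0.13 for the mean of both treatments, against 0.00193 and 0.01 with TMM. It moved the share of calls that were higher in KD to 27.4% under ICI (51.9% with TMM) and 31% for the mean (49.6%). Relative to that median, Mavs (-0.54) and Irf3 (-0.44) under ICI were lower by about what TMM gave. Over all genes, the calls for RI against ICI were 47 in WT and 14 in KD. They were 389 and 450 by DESeq2, 77 and 97 when low genes were kept, and 828 and 0 when only the groups compared were fitted. Without KD ICI 3 they were 350 and 3324 (with 1902 for the difference, against 61). With library size alone they were 32 and 9, and with the naming as a covariate 12 and 76. The WT calls fell to 6, 6 and 7 without WT ICI 1, 2 and 3 in turn, and to 3, 2 and 5 without WT RI 1, 2 and 3.

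Same-numbered libraries of different groups had deviations correlated between -0.344 and 0.301 over 18 pairs, with a mean of 0.00638. These values gave no sign of pairing by replicate number, but with 3 libraries a group they cannot exclude it. With the replicate block, 6 genes were called under ICI, with Mavs added (-0.33, adjusted p = 0.0326), and no other call changed. The block left 23 calls over all genes for RI against ICI in WT, 3 in KD and 21 for the difference, against 61 without it.

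Changes of sign occurred in values that had not passed. With library size alone these were, for RI against ICI, Mb21d1 in WT (-0.026) and Tbk1 (0.0039) and Tmem173 (0.024) in KD. With the naming as a covariate they were Irf3 in KD against WT under RI (-0.098), Ikbke in WT (0.021), Ifih1 (-0.11), Mavs (-0.020) and Irf3 (-0.030) in KD, and the difference of Tmem173 (-0.094). Within the JIAN libraries they were Irf3 in KD against WT under RI (-0.11), Ikbke (0.10) and Tmem173 (0.0093) in WT, Ifih1 (-0.066), Mavs (-0.046), Zbp1 (0.34), Irf3 (-0.15) and Tmem173 (0.15) in KD, and the difference of Irf3 (-0.019). Without the SG793 libraries they were Irf3 in KD against WT under RI (-0.11) and, in KD, Ifih1 (-0.18), Mavs (-0.13), Zbp1 (0.17), Irf3 (-0.12), Tbk1 (0.045) and Tmem173 (0.13). With KD ICI 1 and KD ICI 2 summed they were Ifih1 (-0.028) and Mavs (-0.017) in KD and the difference of Tmem173 (-0.10). With 1 library left out, values that crossed 0 ran from -0.14 to 0.081 for Mavs in KD against WT under RI, from -0.12 to 0.0084 for Irf3 in the mean of both treatments, and from -0.079 to 0.091 for Mb21d1 in WT. In KD they ran from -0.098 to 0.18 for Ifih1, from -0.074 to 0.15 for Mavs, from -0.046 to 0.15 for Irf3 and from -0.20 to 0.23 for Tmem173, and for the difference from -0.065 to 0.12 for Tbk1 and from -0.11 to 0.31 for Tmem173.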
